A study of Salmo salar with 9 samples.

Results

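The comparison described here sets Atlantic salmon fed the Oceanfeed blend of seaweeds (SW2) against salmon fed Laminaria digitata, a brown kelp (SW1). Its members were chosen by diet alone: 3 SW2 fish and 3 SW1 fish of 9 fish in all, with no control fish in the contrast. Both diets held 10% seaweed and were given for 42 days, and every fish had then been injected with lipopolysaccharide (LPS) at 6 mg per kg and was sampled 68 to 70 h later. RNA of the head kidney was sequenced from individual fish of a commercial farm, 1 fish per tank. The other 3 fish received a fishmeal-based diet (FMC) and the same injection. Their values are given as background only. No fish without LPS was among the samples, so no value here separates a diet from the response to LPS. Because 1 fish stood for 1 tank, the spread between fish of a diet holds both tank and fish differences.

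The head kidney of salmon is the main blood-forming organ, in which macrophages, granulocytes and B cells develop beside red cells. It also holds the interrenal tissue, which makes cortisol, and is in this respect the counterpart of the adrenal gland. LPS, a wall component of Gram-negative bacteria, is taken up and answered mainly by macrophages and granulocytes. In bulk tissue of this kind, fewer cells of a type and less RNA per cell cannot be told apart.

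Reads had been counted on 2 references. The NCBI reference held 48223 S. salar cDNA sequences, and the de novo reference held 87600 contigs assembled from the reads of these fish. Totals in the 6 seaweed-fed fish were 2294055 to 3203677 counts on the NCBI reference and 8892018 to 12228633 counts on the de novo reference. Contigs with 10 or more counts summed over the 6 fish were tested, which were 22845 NCBI sequences and 87485 de novo contigs. Levels are given as counts per 1000000 counts (CPM), scaled by the trimmed mean of M-values (TMM), for fish 1, 2 and 3 of a diet in that order, with means ± SD of 3 fish. Differences are log2 fold changes, SW2 minus SW1, with a standard error (SE) and a p-value from the quasi-likelihood test of edgeR. A contig was called at an adjusted p under 0.05.

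A pair of libraries stood apart before any diet was compared. In SW2 fish 1, 1 contig resembling a ribosomal RNA antisense transcript held 16.5% of the de novo counts, against 0.395% to 1.44% in the other 5 fish. SW1 fish 1 was the most distant from its own group. Over 25527 de novo contigs with a mean of 50 or more counts, SW1 fish 1 and SW1 fish 2 differed by 0.99 (root mean square of the log2 difference), more than any SW1 fish differed from any SW2 fish (0.422 to 0.817). The SW2 fish differed among themselves by 0.397 to 0.429. SW1 fish 2 was also distant from the SW2 fish, at 0.66 to 0.681, while SW1 fish 3 lay at 0.422 to 0.462 from them. Hemoglobin contigs took 0.711% of the de novo counts in SW1 fish 1 and 0.149% to 0.258% in the other 5. Beside many of the gene groups below, values without one or the other of these libraries are given.

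**Figure D1:**
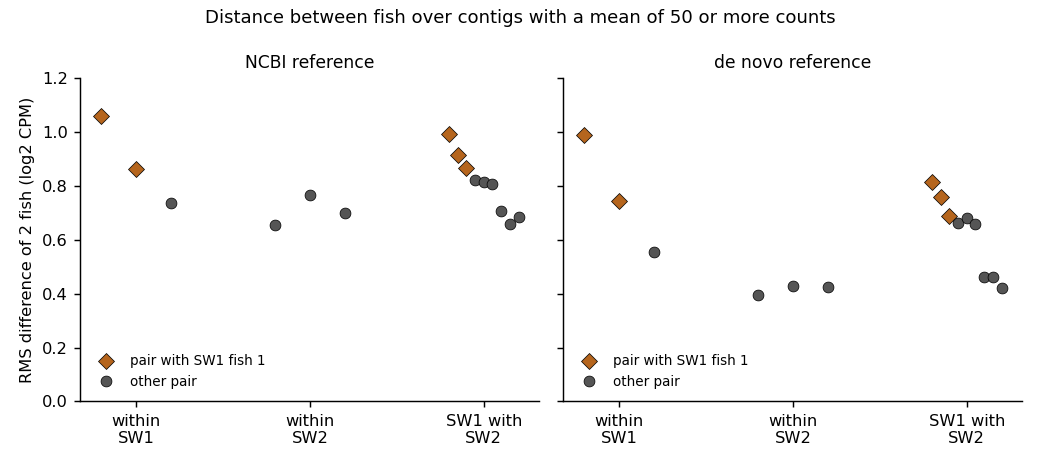
Distance between fish, as the root mean square difference in log2 CPM over contigs with a mean of 50 or more counts, for each pair of seaweed-fed fish on the NCBI (left) and de novo (right) references. Each point is 1 pair and diamonds are pairs with SW1 fish 1; on the de novo reference SW1 fish 1 and 2 lie 0.99 apart, while the 3 SW2 pairs lie at 0.397 to 0.429.

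Very few contigs separated the diets. On the NCBI reference 0 of 22845 sequences were called (0%), with a smallest adjusted p of 0.0668 by edgeR, and 1379 had an unadjusted p under 0.05 (6.04%), of which 492 lay higher in SW2 (2.15%) and 887 lower (3.88%). An unadjusted p under 0.01 was reached by 267 of them (1.17%), 75 higher (0.328%) and 192 lower (0.84%). By DESeq2, 25 NCBI sequences had an adjusted p under 0.05. On the de novo reference 2 of 87485 contigs were called by edgeR (0.00229%), 1 higher and 1 lower (0.00114% each), and 47 by DESeq2. By edgeR, 5773 had an unadjusted p under 0.05 (6.6%). Of the latter, 2176 lay higher in SW2 (2.49% of the contigs tested) and 3597 lower (4.11%). At an unadjusted p under 0.01 there were 1216 (1.39%), of which 340 lay higher (0.389%) and 876 lower (1%). The median log2 fold change of all contigs was -0.01 on both references. In 12.9% of the NCBI sequences and 13.7% of the de novo contigs the 3 SW2 fish did not overlap the 3 SW1 fish in CPM, with SW2 above in 5.08% and 7.15% and below in 7.82% and 6.52%. The counts of members below are read against these shares. Counts given without a fish are read against the shares of that fit. On the de novo reference an unadjusted p under 0.05 was reached by 12.6% without SW1 fish 1 (5214 higher, 5790 lower). Without SW2 fish 1 it was reached by 3.67% (1191 higher, 2024 lower). On the NCBI reference these shares were 9.38% and 3.93%. Apart from the 2 called contigs, no contig named below passed the adjusted threshold in edgeR with all 6 fish, and the lists were not tested as lists. Their values are given as measured levels.

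The contig that separated the diets most firmly had no protein name. It is contig45761, which matches an unnamed rainbow trout (Oncorhynchus mykiss) transcript. Its level was 18.4, 21.9 and 16.6 CPM in the SW1 fish and 1.04, 1.07 and 0.806 CPM in the SW2 fish. The FMC fish held 0.5, 1.63 and 1.67 CPM, so that this contig was high in the 3 L. digitata fish and low in the other 6. It fell in SW2 vs. SW1 by 4.28 on the log2 scale (SE 0.315, edgeR adjusted p = 0.000417), and SW1 held 19.5 times the SW2 level. It was called under each alternative fit that tested single contigs, with an adjusted p of 2.94e-20 to 0.0249.

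The other called contig was annotated as DNA polymerase subunit delta-4, the small accessory subunit of the polymerase that replicates the lagging strand and fills repair gaps. This is contig86905. It had 0 counts in each SW1 fish and 84, 85 and 334 counts in the SW2 fish. It was therefore at least 181-fold higher in SW2, with 3 counts over the SW1 group taken as the floor, and its edgeR adjusted p was 0.0469. Among the FMC fish, fish 1 had 1 count and fish 2 and 3 had 471 and 378, so that the contig was also close to absent in 1 control fish. It was the single contig of that name on the de novo reference. Its call was lost with limma voom (adjusted p = 0.65), with all 9 fish in the fit (0.651), with at least 10 counts required in 3 fish (0.175) and without SW1 fish 3 (0.324). Over its alternatives the adjusted p ran from 2.58e-06 to 0.651.

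Contigs that were read in each fish of 1 seaweed diet and hardly in the other were rare. Such a contig was defined by 10 or more counts in each fish of 1 diet and 1 or fewer in each fish of the other. On the NCBI reference 3 sequences met this for SW1 and 1 for SW2, and on the de novo reference 1 contig did for each diet. The NCBI sequence of anamorsin, which serves in the assembly of cytosolic iron-sulfur proteins, had 28, 32 and 25 counts in SW1 and 0 in each SW2 fish. Of the 2 NCBI sequences of translocon-associated protein subunit gamma, part of the machinery that moves new proteins into the endoplasmic reticulum, 1 had 22, 25 and 35 counts in SW1 and 0 in SW2. The 2 together had 25, 30 and 42 counts in SW1 and 13, 4 and 3 in SW2. Of the 3 NCBI sequences of FCF1 homolog, an rRNA-processing protein, 1 had 13, 14 and 20 counts in SW1 and 0 in SW2. The 3 together had 24, 37 and 33 counts in SW1 and 10, 10 and 11 in SW2. In the opposite direction, the NCBI sequence of proteasome subunit beta type-2 had 0 counts in SW1 and 23, 49 and 61 in SW2. Among the FMC fish, the sequence of anamorsin had 14, 0 and 24 counts and that same sequence of translocon-associated protein subunit gamma had 31, 13 and 25. The same sequence of FCF1 homolog had 10, 3 and 11 counts there, and that of proteasome subunit beta type-2 had 2, 15 and 56. Counts of such sequences thus also varied between fish of the control diet. FCF1 homolog and anamorsin were chosen for naming after their values were seen.

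When the de novo contigs of these proteins were read, the diets lay close together or overlapped. On the de novo reference the 5 contigs of proteasome subunit beta type-2 summed to 349 ± 241 CPM in SW1 and 349 ± 28.9 CPM in SW2. Anamorsin had 9 de novo contigs with a median log2 fold change of 0.10, FCF1 homolog 4 with 0.12, and translocon-associated protein subunit gamma 2 with 0.14. These medians were 0.02, -0.23 and -0.21 without SW1 fish 1. In sorting nexin-18, a membrane-bending protein of endocytosis, contig55865 had 405, 21 and 89 counts in SW1 and 0, 1 and 0 in SW2. All 8 contigs of sorting nexin-18 summed to 56.5, 23.9 and 33.9 CPM in SW1 and 25.2, 26.4 and 26 CPM in SW2, which overlap. Salmonids carry many duplicated genes, and reads of copies or alleles can be shared between contigs, so a level of 1 contig need not be the level of its protein. Further contigs were read in 1 fish only, with 10 or more counts there and 1 or fewer in the other 5: 25 NCBI sequences in an SW1 fish and 22 in an SW2 fish, and 24 and 23 de novo contigs.

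**Figure D2:**
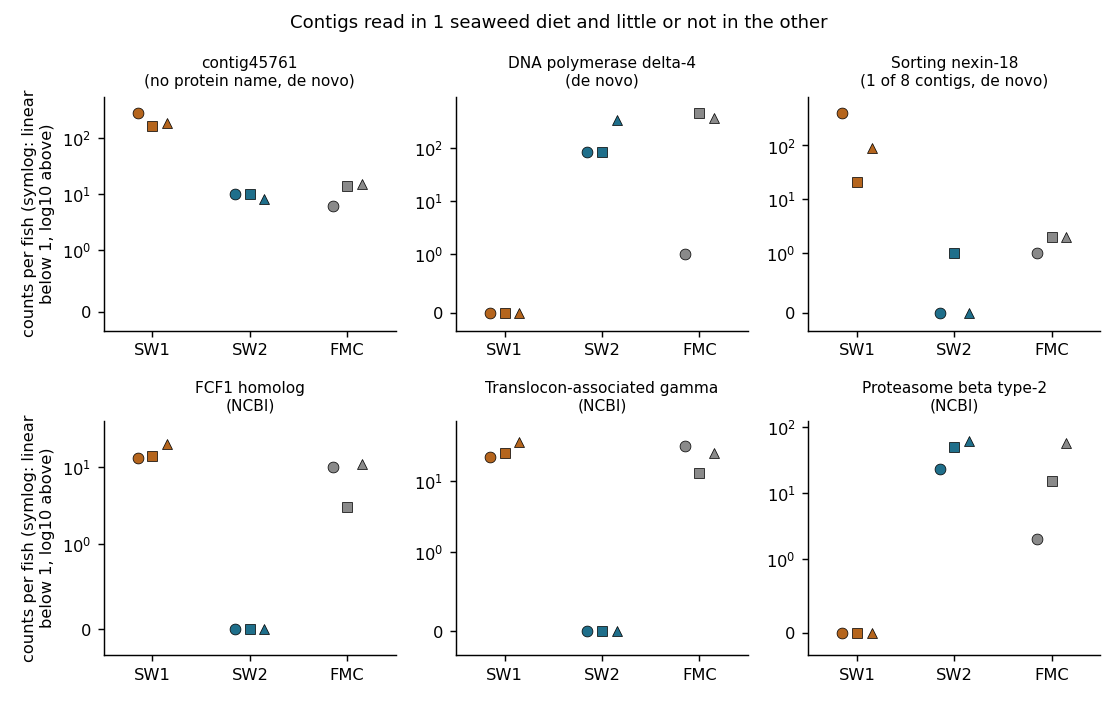
Counts per fish of 6 contigs that were read in 1 seaweed diet and little or not in the other, on a symmetric log axis (linear below 1 count). Circles, squares and triangles are fish 1, 2 and 3; DNA polymerase delta-4 has 0 counts in each SW1 fish and 84 to 334 in SW2, but 1 count in FMC fish 1.

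Contigs of 1 protein were therefore also summed in each fish before testing. This gave 13637 protein descriptions on the de novo reference, of which 0 were called. An unadjusted p under 0.05 was reached by 601 (4.41%, against 6.6% of single contigs), 197 higher in SW2 and 404 lower. No protein sum given below thus passed the adjusted threshold. For some proteins the difference seen in single contigs stood in the sum, and for others it did not.

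Fibronectin, the matrix glycoprotein to which blood cells and macrophages attach, was a protein of the former kind. Its 14 full-name contigs summed to 58.1, 40.9 and 85.1 CPM in SW1 and 111, 114 and 107 CPM in SW2. Each SW2 fish lay above each SW1 fish, and the 3 FMC fish, at 63.6, 52.2 and 64.5 CPM, lay within the SW1 range. The log2 fold change of the sum was 0.76 (SE 0.274, unadjusted p = 0.0219, adjusted p = 1). Of 16 fibronectin contigs with fragments included, 15 lay above 0 and 13 had an unadjusted p under 0.05, against 2.49% of all contigs tested. These contigs are pieces of 1 or a few transcripts and share their reads' source, so they are not separate pieces of evidence. Contig48573 was the most different, at 0.335, 0.134 and 0.527 CPM in SW1 and 2.3, 3.74 and 2.12 CPM in SW2 (log2 fold change 2.89, SE 0.485, adjusted p = 0.374). Without SW1 fish 1, 12 of the 16 had a p under 0.05 and a higher level in SW2, and without SW2 fish 1, 11 did. The single NCBI sequence of fibronectin had a log2 fold change of 0.34, with overlapping fish.

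The wider matrix list (fibronectin, collagens, laminins and matrix metalloproteinases) had 180 de novo members. Of these, 17 lay higher in SW2 at an unadjusted p under 0.05 and 1 lower, and their median was 0.19, beside -0.01 for all contigs. Fibronectin gave 13 of the 17. The 93 collagen contigs, structural fibres of connective tissue, had 3 such contigs higher and 0 lower around a median of 0.14, and 16 higher and 2 lower around 0.54 without SW1 fish 1. For the 128 contigs of integrins, selectins and endothelial adhesion molecules, which bind matrix and vessel wall, the median was 0.09 and 1 contig lay higher against 2 lower. Without SW1 fish 1 those counts became 40 and 5 for the matrix and 22 and 3 for adhesion, while 11004 of all contigs then had a p under 0.05. On the NCBI reference 0 of the 16 matrix members had a p under 0.05.

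Scavenger receptors of macrophages lay higher in SW2 for particular members. Scavenger receptor cysteine-rich type 1 protein M160, a surface receptor of the family of the hemoglobin receptor CD163, summed over 2 contigs to 50.2, 111 and 128 CPM in SW1 and 216, 203 and 212 CPM in SW2. FMC fish held 99.6, 62.6 and 38 CPM, so the 3 SW2 fish were the highest of all 9. The log2 fold change was 1.06 (SE 0.297, unadjusted p = 0.00585). Of the 2 contigs, contig1084 lay at 1.27 and held most of the sum, while the other lay at -0.31. The NCBI sequence of M130, the protein name of CD163 itself, had 374, 1188 and 1317 CPM in SW1 and 2402, 2398 and 2393 CPM in SW2 (log2 fold change 1.34, SE 0.42, adjusted p = 0.791). The 3 SW2 fish differed by an SD of 4.28 CPM and the SW1 fish by an SD of 511 CPM. On the de novo reference 1 contig of M130, contig4422, had a log2 fold change of 1.45, but the 4 contigs of M130 summed to a difference of 0.39 (SE 0.241).

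The de novo sums of macrophage mannose receptor 1 and legumain showed no such distance. Macrophage mannose receptor 1, an endocytic receptor for sugar chains, summed to 1642 ± 240.5 CPM in SW1 and 1856 ± 173 CPM in SW2, a log2 difference of 0.08. Of its 5 contigs, 4 lay above 0 and 1 had an unadjusted p under 0.05, with a median of 0.35. Without SW1 fish 1 that median was 0.55 and 2 had such a p. Legumain, a lysosomal protease, had a contig at -1.13 (contig10705) and a sum at -0.21. Over the 36 de novo members of the macrophage list, 3 had an unadjusted p under 0.05 and a higher level in SW2 and 2 a lower one, with a median of -0.03. That median was 0.38 without SW1 fish 1, with 13 members higher and 3 lower. In that fit 12.6% of all de novo contigs had an unadjusted p under 0.05.

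Iron-handling genes lay mostly above 0. Of 59 de novo members tested of 60, 46 lay above 0, and 8 had an unadjusted p under 0.05 and a higher level in SW2, with 0 lower. Those counts were 15 and 1 without SW1 fish 1, and without SW2 fish 1 they were 4 and 0. With all fish, melanotransferrin had 4 such higher contigs and transferrin receptor protein 1 had 2. Solute carrier family 40 member 1 and haptoglobin had 1 each. Contigs of 1 protein are pieces of 1 or a few transcripts, so they are not separate pieces of evidence. The median of the list was 0.32, and it was 0.36 without SW1 fish 1 and 0.35 without SW2 fish 1. Melanotransferrin, a membrane-bound relative of transferrin, summed over 4 contigs to 0.738, 0.668 and 2.64 CPM in SW1 and 6.27, 3.1 and 4.43 CPM in SW2. These are low levels, and the FMC fish at 1.42, 0.464 and 3.46 CPM overlapped both diets. The log2 fold change was 1.66 (SE 0.513, unadjusted p = 0.01). All 4 contigs had an unadjusted p under 0.05, but 1 of 4 did without SW2 fish 1. Transferrin receptor protein 1, through which cells take up iron-loaded transferrin, summed over 5 contigs to 185, 318 and 310.4 CPM in SW1 and 306, 923 and 517 CPM in SW2. The diets overlapped at SW2 fish 1, and the log2 fold change was 1.03 (SE 0.377, unadjusted p = 0.0228). Of its 5 contigs, 2 had an unadjusted p under 0.05 with all fish and 5 without SW1 fish 1.

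Ferroportin (solute carrier family 40 member 1), the iron exporter of macrophages, summed over 4 contigs to 79.6, 25 and 35.6 CPM in SW1 and 65.3, 81.6 and 76.4 CPM in SW2. The diets overlapped through SW1 fish 1 alone. With all fish the median of the 4 contigs was 0.55 and 1 had an unadjusted p under 0.05. Without SW1 fish 1 the median was 1.23 and all 4 had such a p, and without SW2 fish 1 it was 0.62 and 0 had. Haptoglobin, the plasma protein that binds free hemoglobin, had 0.738, 5.88 and 5.8 CPM in SW1 and 8.57, 7.59 and 20.6 CPM in SW2 (contig69811, log2 fold change 1.60, SE 0.577, adjusted p = 0.72). On the NCBI reference the 29 iron members had a median of 0.21, and 0 had a p under 0.05 in either direction. That median was 0.11 without SW1 fish 1, with 1 higher and 1 lower. Hemoglobin levels overlapped between the diets. The summed de novo list of hemoglobin and red cell genes was 7960.5, 4844 and 2600.1 CPM in SW1 and 4193, 4288 and 2937 CPM in SW2, and its part in the iron genes was not tested. A single NCBI sequence of hemoglobin subunit beta-1 stood out, with 36.8, 77.7 and 75 CPM in SW1 and 737, 643 and 152 CPM in SW2 (log2 fold change 3.03, SE 0.561, adjusted p = 0.475). Of the 6 NCBI sequences of that subunit it was the single one with a p under 0.05, and the median of the 6 was 0.36. The median was 0.89 without SW1 fish 1, and 2 had such a p.

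Complement, the plasma cascade that marks microbes for uptake, was split. Of its 62 de novo members 10 lay higher in SW2 at an unadjusted p under 0.05 and 2 lower, while the median was -0.0024. The counts were 11 and 5 without SW1 fish 1 and 9 and 1 without SW2 fish 1. Complement C3, the central component, gave 8 of the 10. Its 9 fragment contigs summed to 0.335, 2.14 and 5.45 CPM in SW1 and 9.3, 10.3 and 13.2 CPM in SW2, with no overlap (log2 fold change 2.01, SE 0.646, unadjusted p = 0.0123). FMC fish held 2.67, 0.813 and 16.2 CPM and so spanned both diets. The contig with the plain name C3 had 21.9, 8.95 and 10.6 CPM in SW1 and 16.8, 19.9 and 17.1 CPM in SW2, which overlap.

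**Figure D3:**
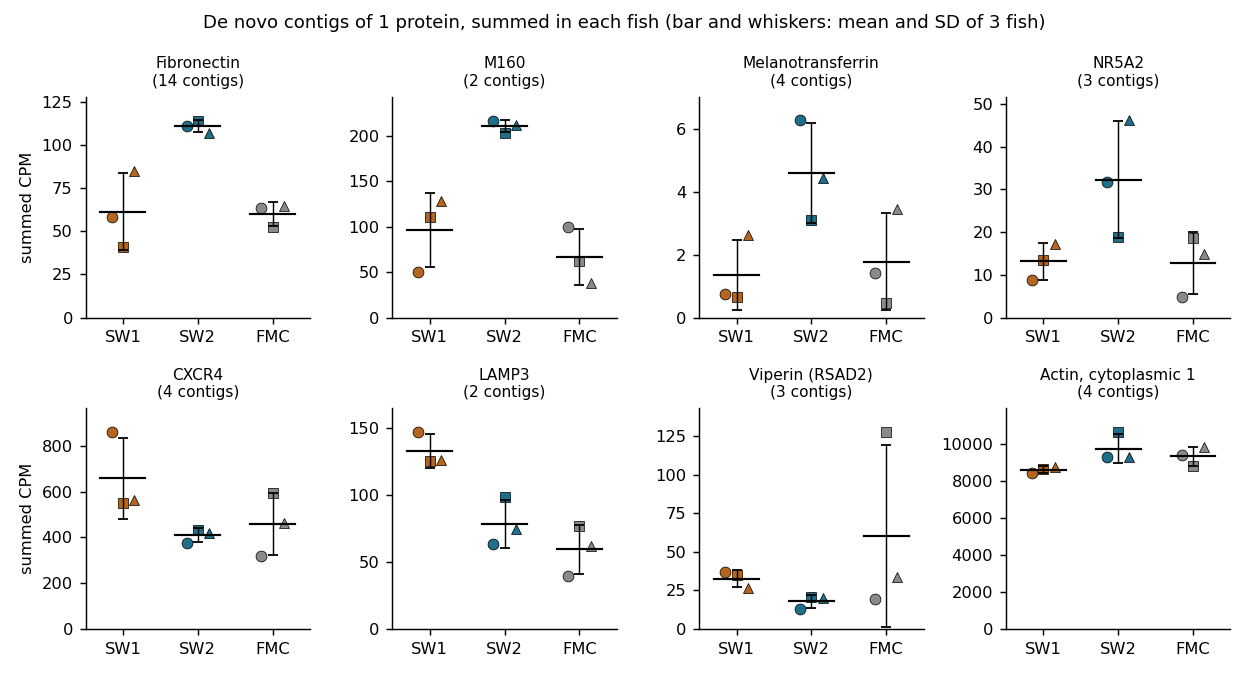
Summed CPM of the de novo contigs of 8 proteins in each fish of the SW1, SW2 and FMC diets; circles, squares and triangles are fish 1, 2 and 3, and bars and whiskers are the mean and SD of 3 fish. Fibronectin lies at 40.9 to 85.1 CPM in SW1 and 107 to 114 CPM in SW2, while CXCR4 and LAMP3 lie lower in each SW2 fish than in each SW1 fish; actin is a protein for which 1 NCBI sequence lay at -1.12 and the de novo sum at 0.09.

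Several immune genes lay lower in SW2. CXCR4, the receptor for the chemokine that holds blood-forming cells and granulocytes in the marrow of mammals, summed over 4 contigs to 862, 551 and 563 CPM in SW1 and 377, 434 and 419 CPM in SW2. No SW2 fish reached the lowest SW1 fish, and FMC fish at 320.1, 594 and 462 CPM overlapped both. The log2 fold change was -0.79 (SE 0.268, unadjusted p = 0.0158). Of 5 CXCR4 contigs, precursor names included, 2 had a p under 0.05 with all fish and without SW1 fish 1, and 0 without SW2 fish 1, all 5 lying below 0 in each case. C-C chemokine receptor type 9, a homing receptor of lymphocytes, summed to 344, 160.4 and 147 CPM in SW1 and 137, 164 and 132 CPM in SW2, where the distance rested on SW1 fish 1. Without that fish its contig12586 went from -0.91 to -0.31. Over the 67 chemokine and chemokine receptor contigs, the median was -0.09, and at an unadjusted p under 0.05 SW2 was the higher diet in 2 and the lower in 5. These counts were 7 and 7 without SW1 fish 1 and 1 and 0 without SW2 fish 1, so the excess of lower contigs was not kept without either. In the opposite direction, C-X-C chemokine receptor type 2, a neutrophil receptor, had 1.07, 0.936 and 3.16 CPM in SW1 and 5.85, 4.81 and 2.92 CPM in SW2 (contig824).

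Interferon-stimulated genes, which cells switch on in answer to interferon, lay lower in SW2 in few members. The median of 141 de novo members was -0.12, and an unadjusted p under 0.05 went with a lower level in 11 and a higher level in 5, or in 5 and 2 without SW2 fish 1. On the NCBI reference the 10 members summed to 213, 205 and 209 CPM in SW1 and 143, 169.8 and 157 CPM in SW2, with no overlap. Viperin (radical S-adenosyl methionine domain-containing protein 2), an antiviral enzyme, summed over 3 contigs to 36.9, 34.7 and 26.4 CPM in SW1 and 13, 20.7 and 19.9 CPM in SW2. The diets did not overlap, while FMC fish 2 held 128 CPM and the other FMC fish 19.4 and 33.6 CPM. The log2 fold change was -0.96 (SE 0.258, unadjusted p = 0.00444). LAMP3 (lysosome-associated membrane glycoprotein 3), known in mammals from mature dendritic cells, had 147, 125 and 126 CPM in SW1 and 63, 98 and 74.5 CPM in SW2. The log2 fold change was -0.85 (SE 0.233, unadjusted p = 0.00505). LAMP3 was a member of the lysosome list, not of the interferon list. Of the 231 de novo lysosome members, 154 lay above 0. At an unadjusted p under 0.05, 10 of them lay higher in SW2 and 5 lower (6.49%, against 6.6% of all contigs). The 8 Mx contigs, dynamin-like antiviral GTPases, all lay below 0 with a median of -0.34, and 1 had a p under 0.05.

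NF-kappa-B inhibitor alpha, the brake on NF-kappa-B that the pathway itself induces, summed over 18 contigs to 419 ± 42.1 CPM in SW1 and 382 ± 27.7 CPM in SW2. The log2 difference was -0.22 (SE 0.197), and its contigs ran from -2.58 to 1.24. An unadjusted p under 0.05 went with a lower level in 2 of the 18 and a higher level in 0. Of these, contig4636 had 11.8, 29.9 and 18.4 CPM in SW1 and 5.85, 8.34 and 13 CPM in SW2, which overlap (log2 fold change -1.15, SE 0.373, unadjusted p = 0.00903, adjusted p = 0.708). Contig19246, at -2.58 (unadjusted p = 0.0392), had 13.5, 0 and 8.87 CPM in SW1 and 0, 3.85 and 0.101 CPM in SW2. There was 1 such contig without SW1 fish 1, and without SW2 fish 1 there were 0. Nuclear factor NF-kappa-B p105 subunit, the precursor of the p50 subunit, had 7.31, 6.95 and 7.38 CPM in SW1 and 11.3, 10.4 and 11.1 CPM in SW2 (contig27376, log2 fold change 0.58, SE 0.245, adjusted p = 0.743).

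In several genes of antigen presentation the level differed widely between single fish. An NCBI sequence of an MHC class I allele (Sasa-UBA*37) had 0, 0.462 and 0 CPM in SW1 and 0.829, 1.29 and 726 CPM in SW2, so that 1 SW2 fish carried the level. Another (UBA*0701) had 0.29, 0 and 0.328 CPM in SW1 and 186, 478 and 0 CPM in SW2, with 177, 0.889 and 293 CPM in FMC. Contig87551, an MHC class I-related gene, had 182 CPM in SW1 fish 1 and 0.101 or less in each SW2 fish. MHC class I genes differ in sequence between individuals, and the genotype of the fish cannot be told apart from diet in such contigs. Over all 34 NCBI members of MHC class I the median was 0.03, and the p was under 0.05 for 7 that lay higher and 7 that lay lower. The counts were 6 and 3 without SW1 fish 1, and without SW2 fish 1 the median was -0.55 with counts of 7 and 6.

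Interrenal steroid genes lay above 0 in 22 of 26 de novo members. Their median was 0.37 (0.24 without SW1 fish 1), and 4 had an unadjusted p under 0.05 with a higher level in SW2 and 0 with a lower one. NR5A2, a nuclear receptor that activates steroid and bile acid enzymes in mammals, summed over 3 contigs to 8.72, 13.5 and 17.3 CPM in SW1 and 31.7, 18.8 and 46.2 CPM in SW2. The diets did not overlap, although SW2 fish 2 lay close to SW1 fish 3. The log2 fold change was 1.23 (SE 0.355, unadjusted p = 0.00692). Steroid 21-hydroxylase, an enzyme of cortisol synthesis, summed to 225, 472 and 483 CPM in SW1 and 754, 382 and 875 CPM in SW2, which overlap. Steroidogenic acute regulatory protein, which carries cholesterol into the mitochondrion, had 1146, 1592 and 1727 CPM in SW1 and 2254, 1558 and 3173 CPM in SW2 on the NCBI reference, which also overlap. Of de novo contigs higher in SW2 at an unadjusted p under 0.05, NR5A2 had 3 and steroid 21-hydroxylase 1. The 6 contigs of cholesterol side-chain cleavage enzyme and the 3 of steroidogenic acute regulatory protein had 0. The count of 4 in the list thus rested mainly on 1 protein.

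The summed level of the interrenal list differed between fish of 1 diet. It was 1496, 2783 and 2888 CPM in SW1, 3469, 2203 and 4891 CPM in SW2 and 679, 3049.8 and 1524 CPM in FMC. SW2 fish 2 lay below SW1 fish 2 and 3, and the amount of interrenal tissue in each sample was not measured otherwise. Of the genes that respond to cortisol, DNA damage-inducible transcript 4 protein, an inhibitor of growth signaling, lay lower in SW2. It had 99.2, 73.2 and 80.2 CPM in SW1 and 51.1, 44.4 and 10.8 CPM in SW2, and the FMC fish held 8.34 to 22.1 CPM (contig6479, log2 fold change -1.27, SE 0.445, adjusted p = 0.716). The 66 de novo members of the glucocorticoid response list had a median of 0.07, and the p was under 0.05 for 1 that lay higher and 3 that lay lower, or 4 and 2 without SW1 fish 1. On the NCBI reference the 4 members had a median of -0.40, and 0.19 without SW1 fish 1.

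Genes of lipid synthesis and transport had a median of 0.28 over 168 de novo members, of which 120 lay above 0. An unadjusted p under 0.05 was found for 7 that lay higher in SW2 and 2 that lay lower. Together these were 5.36% of the members, below the 6.6% of all de novo contigs. The counts were 20 and 3 without SW1 fish 1, with a median of 0.21. The list summed to 1418, 1505 and 1456 CPM in SW1 and 1604, 1637 and 1566 CPM in SW2, with no overlap. With all fish, the 15 contigs of fatty acid synthase, which builds palmitate, all lay above 0, and 2 had an unadjusted p under 0.05. Without SW1 fish 1, 13 of the 15 lay above 0, and without SW2 fish 1, 14 did. These contigs are pieces of 1 or a few transcripts, so they are not separate pieces of evidence. Their median was 0.80, and 0.40 without SW1 fish 1. Their sum was 4.16, 7.35 and 12.7 CPM in SW1 and 14.5, 18.3 and 11.4 CPM in SW2, with SW1 fish 3 above SW2 fish 3 (log2 fold change 0.79, SE 0.363, unadjusted p = 0.0556). Sterol regulatory element-binding protein 1, the transcription factor that drives fatty acid synthesis, had 5.97, 4.41 and 7.29 CPM in SW1 and 11.1, 10.1 and 10.8 CPM in SW2 (contig10016, log2 fold change 0.83, SE 0.27, adjusted p = 0.709). It was 1 of 4 contigs of that protein, whose median was 0.26, and 0.49 without SW1 fish 1.

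For secretion, cell division and NCBI antibody genes the median difference between the diets fell without SW1 fish 1. The endoplasmic reticulum list (folding and secretion) summed to 4780.4 CPM in SW1 fish 1 and to 8900.3 to 12381 CPM in the other 5 seaweed-fed fish. Cell cycle genes summed to 4682 CPM in that fish and 9569 to 10738 CPM in the others. With all fish, 177 of 227 endoplasmic reticulum members lay above 0 with a median of 0.28, and the median over 323 cell cycle members was 0.23. Without SW1 fish 1 these medians were 0.02 and -0.0023. At an unadjusted p under 0.05, 10 endoplasmic reticulum members lay higher and 2 lower, or 9 and 5 without SW1 fish 1. For cell cycle members these counts were 17 and 6, or 20 and 19 without that fish. With all fish these were 5.29% of the endoplasmic reticulum and 7.12% of the cell cycle members, beside 6.6% of all de novo contigs. Proteasome subunits went from a median of 0.07 to -0.25 without SW1 fish 1, and cytosolic ribosomal proteins from -0.13 to -0.28. FMC fish 2 was also low, at 5378 and 5287 CPM for the endoplasmic reticulum and cell cycle lists. SW1 fish 2 was high for the proteasome list, at 12392 CPM against 3522 to 8866 CPM in the other 5 seaweed-fed fish. For ribosomal proteins it held 105814 CPM against 55049 to 78726 CPM. Without SW1 fish 1 the SW1 group rested more on SW1 fish 2, and these medians are not given without SW1 fish 2.

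For immunoglobulin sequences of the NCBI reference the median also fell without SW1 fish 1, while members with an unadjusted p under 0.05 still lay mostly higher in SW2. Of 126 members 98 lay above 0, and 13 had an unadjusted p under 0.05 and a higher level in SW2, with 0 lower. The median was 0.39, and 0.12 without SW1 fish 1. The counts were 9 and 1 without SW1 fish 1 and 9 and 0 without SW2 fish 1. Of all NCBI sequences, 9.38% had such a p without SW1 fish 1 (965 higher, 1177 lower). Without SW2 fish 1 it was 3.93% (298 higher, 600 lower). The 80 de novo members of the same list did not share this balance, with a median of 0.03, where SW2 was higher in 3 and lower in 4 with an unadjusted p under 0.05. Those counts were 6 and 8 without SW1 fish 1, and without SW2 fish 1 they were 0 and 2. The sum of the NCBI members was 9595 CPM in SW1 fish 1, 19225 and 12365 CPM in SW1 fish 2 and 3, and 18758, 16541 and 14976 CPM in SW2, so that the diets overlapped. An Ig kappa V-IV sequence was among the members furthest apart, at 6.09, 14.3 and 13.4 CPM in SW1 and 39, 39.5 and 22.2 CPM in SW2 (log2 fold change 1.60, SE 0.378, adjusted p = 0.741). Variable regions are chosen by each B cell clone, so that such values differ between individual fish. In the opposite direction, the truncated C-form of immunoglobulin T, an antibody class of fish, had 3.82, 2.81 and 2.81 CPM in SW1 and 1.25, 1.28 and 1.21 CPM in SW2 (contig14016, log2 fold change -1.36, SE 0.339, adjusted p = 0.623).

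**Figure D4:**
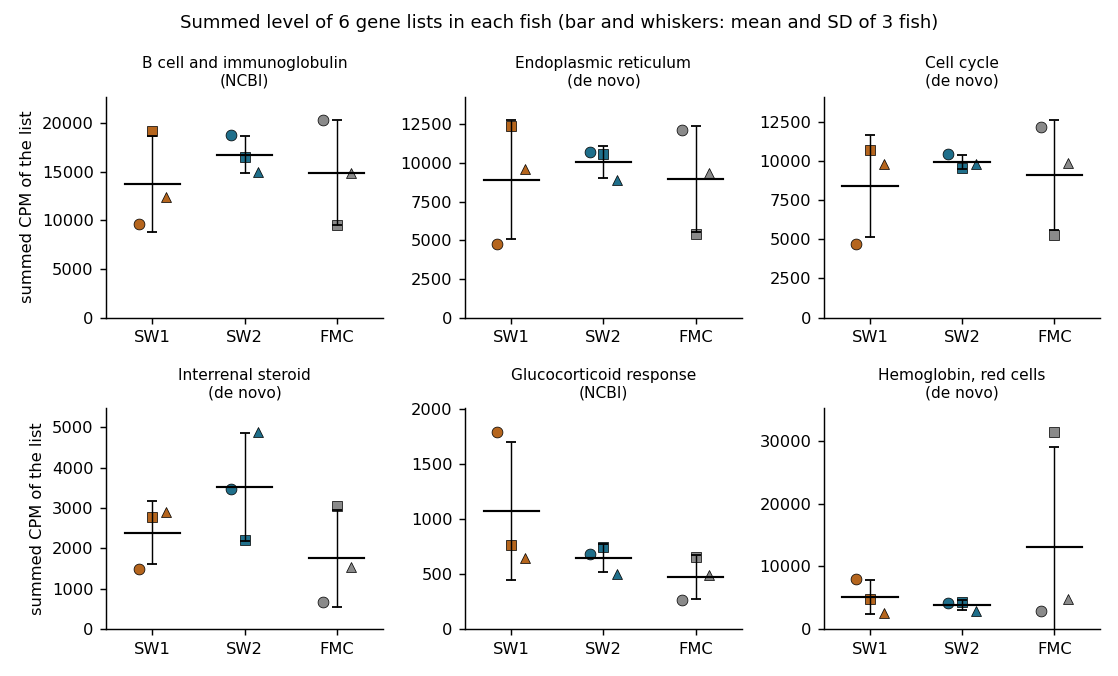
Summed CPM of 6 gene lists in each fish of the SW1, SW2 and FMC diets; circles, squares and triangles are fish 1, 2 and 3, and bars and whiskers are the mean and SD of 3 fish. SW1 fish 1 is the lowest seaweed-fed fish in the immunoglobulin, endoplasmic reticulum, cell cycle and interrenal panels, at 9595, 4780.4, 4682 and 1496 CPM.

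**Figure D5:**
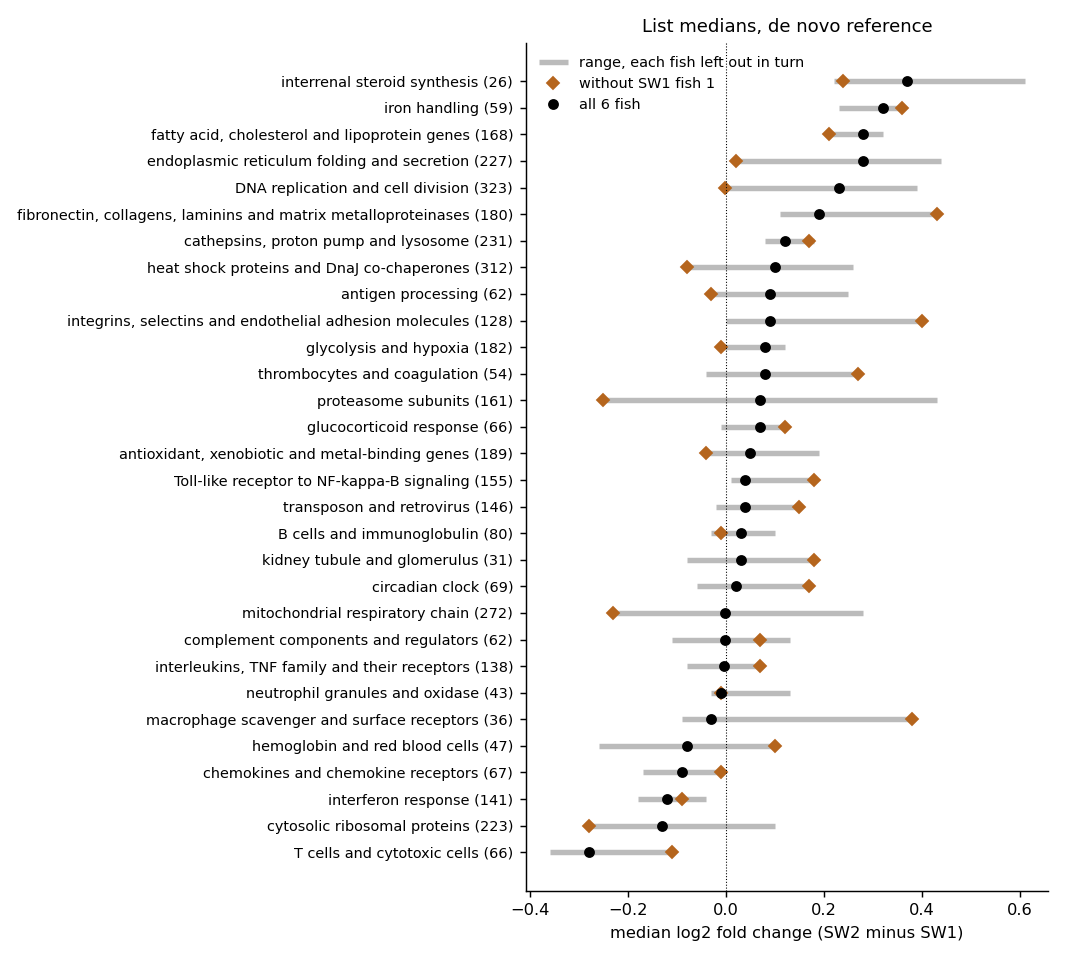
Median log2 fold change, SW2 minus SW1, of the gene lists with 20 or more de novo members tested (number in brackets), with all 6 fish (black), without SW1 fish 1 (diamonds) and over each fish left out in turn (grey). Interrenal, iron and lipid genes keep medians above 0 in each case, while those of the endoplasmic reticulum and cell cycle go from 0.28 and 0.23 to 0.02 and -0.0023 without SW1 fish 1.

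Among contigs with a mean of 50 or more counts per fish, more lay lower in SW2 than higher at an unadjusted p under 0.05: 289 against 171 NCBI sequences and 1074 against 580 de novo contigs. Actin, cytoplasmic 1, a cytoskeletal protein, had an NCBI sequence at 6453, 5513 and 4904 CPM in SW1 and 2568, 2630.4 and 2434 CPM in SW2 (log2 fold change -1.12, SE 0.233, adjusted p = 0.741). On the de novo reference the 4 contigs of that protein summed to 8627 ± 179 CPM in SW1 and 9771 ± 793 CPM in SW2, a log2 difference of 0.09. The other 2 NCBI sequences of cytoplasmic actin also lay above 0, with a median of 0.64 over the 3, so the direction differed between sequences of 1 reference. Prothymosin alpha, a nuclear protein of dividing cells, had an NCBI sequence at 97.4, 114 and 91.1 CPM in SW1 and 35.3, 41.2 and 37.8 CPM in SW2 (log2 fold change -1.38, SE 0.225, adjusted p = 0.322). Its FMC level of 94.4 CPM was close to SW1, and the other prothymosin sequence stood at 0.12.

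RNA-binding protein 7, a cofactor of RNA decay in the nucleus, had an NCBI sequence at 38.8, 37.9 and 28.2 CPM in SW1 and 11.2, 10.3 and 6.63 CPM in SW2 (log2 fold change -1.87, SE 0.29, adjusted p = 0.263). The FMC mean of 33.1 CPM lay near SW1.

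Several single de novo contigs of other proteins lay lower in SW2. Engulfment and cell motility protein 1 (ELMO1), which couples the uptake of dying cells to actin, had contig30611 at 6.03, 8.55 and 10.4 CPM in SW1 and 2.72, 2.35 and 3.32 CPM in SW2, while its 10 contigs summed to a difference of -0.02. Actin-related protein 2/3 complex subunit 5, part of the complex that branches actin filaments, had contig37215 at -1.60 (SE 0.327, adjusted p = 0.494). Tyrosine-protein phosphatase non-receptor type 12, a regulator of cell adhesion, had contig30956 at 35.9, 29.7 and 30.0 CPM in SW1 and 11.5, 12 and 2.92 CPM in SW2, but its 7 contigs summed to 175 ± 0.985 CPM and 163 ± 11.1 CPM. Catalase, which breaks down hydrogen peroxide, had contig41044 at -1.68 and a sum over 11 contigs at -0.0017. Hypoxia-inducible factor 1 alpha, the oxygen-sensitive transcription factor, had contig28841 at -1.15, contig22711 at 1.18 and a median of 0.11 over 26 contigs. The 12 contigs that spell its name without a hyphen before alpha summed to 58.4, 84.5 and 73 CPM in SW1 and 60.9, 55.6 and 50.7 CPM in SW2 (log2 fold change -0.45, SE 0.188, unadjusted p = 0.0415), and the 10 with the hyphen summed to a difference of -0.03.

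Of the contigs on the higher side, synaptic vesicle membrane protein VAT-1 homolog, a membrane-associated protein of the oxidoreductase type, had contig25914 at 6.57, 6.82 and 9.05 CPM in SW1 and 22.3, 26.3 and 16.1 CPM in SW2 (log2 fold change 1.51, SE 0.283, adjusted p = 0.378). Amyloid-like protein 2, a membrane glycoprotein of the amyloid precursor family, had contig11259 at 18.7, 13.9 and 24.9 CPM in SW1 and 48.3, 51 and 29.7 CPM in SW2 (log2 fold change 1.15, SE 0.309, adjusted p = 0.655). IQGAP2, a scaffold of the cytoskeleton, had contig12063 at 3.76, 2.94 and 4.04 CPM in SW1 and 7.1, 7.81 and 9.67 CPM in SW2 (log2 fold change 1.17, SE 0.278, adjusted p = 0.623). In all 3 the FMC fish spanned values of both diets.

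Further proteins named by rule lay close to 0. Glutamate dehydrogenase 1, a mitochondrial enzyme of amino acid breakdown, summed over 10 contigs to 336 ± 38.2 CPM in SW1 and 372 ± 12.1 CPM in SW2 (log2 difference 0.06, SE 0.191). Serine incorporator 1, a membrane protein of lipid synthesis, summed over 17 contigs to 216 ± 20.2 CPM and 209.8 ± 5.46 CPM (log2 difference -0.13, SE 0.203). Single contigs of these proteins ran from -0.77 to 2.23 and from -1.25 to 0.72.

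Markers of other cells of the head kidney were read as lists. On the de novo reference the summed level of T cell and cytotoxic genes lay lower in each SW2 fish than in each SW1 fish. It was 864, 870.1 and 708 CPM in SW1 and 609, 675 and 672 CPM in SW2, and FMC fish spanned both at 573 to 769 CPM. The 66 de novo contigs had a median of -0.28, which was -0.11 without SW1 fish 1. An unadjusted p under 0.05 was found for 2 that lay higher in SW2 and 1 that lay lower (4.55%, against 6.6% of all contigs). On the NCBI reference the list summed to 1268, 1017 and 727 CPM in SW1 and 873, 909.9 and 829 CPM in SW2, which overlap. Macrophage genes of the NCBI reference, 5 members with M130 among them, summed to 9214, 9895 and 8522 CPM in SW1 and 10739, 12533 and 11108 CPM in SW2, while the 36 de novo members overlapped. Neutrophil granule genes summed to 14533 to 16527 CPM in SW1 and 11429 to 15639 CPM in SW2, with a median of -0.01. Kidney tubule and glomerulus genes summed to 362 to 446 CPM in SW1 and 347 to 388 CPM in SW2. Their median was 0.03, and 20 of 31 de novo members lay above 0. Uromodulin, a defining protein of the tubule, lay lower in SW2, unlike most members of this list. It had 162, 103 and 133 CPM in SW1 and 66.7, 90.4 and 94.3 CPM in SW2 (log2 fold change -0.77, SE 0.265, unadjusted p = 0.0174). Of its 2 contigs, 1 had an unadjusted p under 0.05 with all fish and 0 without SW2 fish 1. Chromaffin cell genes had low levels, at 2.54 to 11.3 CPM in SW1 and 5.35 to 13.4 CPM in SW2. Their 4 de novo contigs all lay above 0, with a median of 0.29. That median was 1.68 without SW1 fish 1 and -0.05 without SW2 fish 1. The part of these cells in the gene groups above was not tested. Of 33 lists with a member tested on the NCBI reference, the summed levels of the 3 SW2 and 3 SW1 fish did not overlap in 4 (12.1%), where macrophage, glycolysis and lysosome genes lay higher in SW2 and interferon genes lower. They did not overlap in 3 of 34 on the de novo reference (8.82%), where matrix and lipid genes lay higher and T cell genes lower. These shares were below the 12.9% and 13.7% of single contigs that did not overlap. No list stood apart in this way on both references.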

How the data were processed

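Head kidney RNA of 9 salmon was sequenced as single reads of 50 nt. For each fish, the authors used TopHat2 2.0.5 to align reads to S. salar cDNA from NCBI and to contigs assembled de novo with CLC bio, removed secondary alignments with SAMtools 0.1.18 and deposited raw counts per sequence from HTSeq 0.5.3p9, neither normalized nor pooled (versions per the labels). De novo contigs carry the name of their best database match. The deposited columns of means, fold changes and p-values against FMC were not used.

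The contrast of 3 SW2 and 3 SW1 fish was fitted with edgeR 4.0.16 (R 4.3.3; TMM; quasi-likelihood test; Benjamini-Hochberg adjustment over all contigs tested) on contigs with 10 or more counts over the 6 fish. The SE is the log2 fold change divided by the square root of F. CPM were scaled over all 9 fish. Named were contigs called; up to 10 per direction with the smallest p at a mean of 50 or more counts; up to 4 per list; and 3 proteins that the study discusses (NF-kappa-B inhibitor alpha, glutamate dehydrogenase 1 and serine incorporator 1), other contigs being named after their values were seen. The 34 lists rest on word patterns in the contig names, which were repaired after the matches were seen, and no set test was run. The members and lists were chosen with earlier results of these data known. Alternatives were RLE factors, DESeq2 1.42.0, limma voom 3.58.1, other filters, all 9 fish, a replicate block and leaving out each fish. The steps were tested on simulated data. Libraries of 1 diet differed by more than sampling noise (chi-square of 9.35 or more per degree of freedom), so each counted as 1 fish. No sequences or genome positions were used here. Some results are not reported here.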

Additional observations from a re-analysis of the deposited data

How the results depend on the processing

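On the NCBI reference the calls were 0 with edgeR, 25 with DESeq2, 1 with limma voom, 7 with no filter on low counts and 0 to 7 when each fish was left out in turn (4 without SW1 fish 2, 7 without SW2 fish 2 and 3 without SW2 fish 3). On the de novo reference the 2 calls became 47 with DESeq2, 1 with limma voom, 1 with at least 10 counts in 3 fish, 1 with all 9 fish, 0 after summing by protein description and 2 to 43 when each fish was left out (43 without SW1 fish 1, 12 without SW1 fish 2, 7 without SW2 fish 2 and 4 without SW2 fish 3). Contigs at an unadjusted p under 0.05 were 1379 on the NCBI reference, 798 with DESeq2 and 874 to 2142 with a fish left out (2142 without SW1 fish 1, 898 without SW2 fish 1 and 874 without SW2 fish 2). They were 5773 on the de novo reference, 3446 with DESeq2, 601 after summing, which also lowers the number tested, and 3209 to 11004 with a fish left out (11004 without SW1 fish 1, 3215 without SW2 fish 1 and 3209 without SW2 fish 2). Other causes were not tested. The exclusion of rRNA antisense-like contigs and the sums by protein were chosen after seeing the data; the former left 0 and 2 calls. Over 962 alternative values of 69 contigs named by rule or in the text, 37 passed the adjusted threshold where the edgeR fit with all 6 fish did not. Of the lists, 47 of 67 medians changed sign in some alternative.

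Fish of both diets carry the numbers 1 to 3, but same-numbered fish did not deviate together (correlations -0.13, -0.05 and -0.11 on the NCBI reference, -0.25, -0.04 and -0.14 on the de novo reference). The labels do not say what the number marks. With 3 fish per diet, these correlations cannot decide whether same-numbered fish shared a tank position or handling. With the replicate block the de novo calls were 32 and the NCBI calls 0.

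Values near 0 changed sign. Serine incorporator 1 had 3 NCBI sequences, at -0.24, 0.13 and -0.0016. The last of these was 0.01 with RLE factors, 0.01 with DESeq2, 0.0038 with limma voom and 0.0043 with the replicate block. With a fish left out it was up to 0.10 (0.10, 0.02 and 0.01 without SW1 fish 1, SW2 fish 1 and SW2 fish 2). Contig22944 of that protein, at 0.09, was -0.03 to 0.22 with a fish left out (-0.03 without SW1 fish 3). Contig3505 of glutamate dehydrogenase 1, at -0.01, was 0.0013 with all 9 fish and -0.09 to 0.03 with a fish left out (0.03, 0.03 and 0.01 without SW1 fish 2, SW1 fish 3 and SW2 fish 3). Contig4054 of NF-kappa-B inhibitor alpha, at -0.06, was 0.03 without SW2 fish 1.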
